A study of Mus musculus with 70 samples.

Results

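Multiciliated airway cells carry many motile cilia on their surface, and the 39 genes described here are genes of those cells and cilia, chosen by symbol from a table of gene counts of mouse lung. The table holds 37 of them among 24423 genes; Dnah3 and Dnah12, which encode inner dynein arm heavy chains, were not analysed here. The study asked how loss of Slc26a4, the gene of the anion exchanger pendrin, alters the response of the lung to inhaled crystalline silica. RNA was sequenced from a piece of lung of each of 70 male mice of the strain written 129S-Slc26a4tm1Erg/AjgJ in the protocol. Littermates from heterozygous parents were homozygous wildtype (Pds+/+) or homozygous knockout (Pds-/-), and were about 3 months old at exposure. They breathed either air or 15 mg/m3 Min-U-Sil5 silica in whole-body chambers for 6 hours per day on 4 days, and lungs were taken 1 day, 3 months or 9 months afterwards. The 2 genotypes, 2 exposures and 3 times give 12 groups of 6 mice, except that wildtype air and wildtype silica at 9 months have 5 each. All groups share the strain and the breeding, and air mice were control mice of the same exposure scheme.

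A motile cilium is built on an axoneme of microtubules. Dynein arms along these microtubules are the motors that bend it, radial spokes and the central pair time the stroke, and the nexin link holds neighbouring microtubule doublets together. In the airway the beating of many cilia per cell moves mucus and trapped particles, such as inhaled dust, out of the lung. Foxj1 is the transcription factor that switches on the genes of motile cilia, and Rfx2 and Rfx3 bind the X-box, a motif found in front of many cilia genes. In bulk lung RNA a lower value can mean fewer ciliated cells or less RNA of the gene per cell, and the pair cannot be told apart here.

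No member passed the test for silica against air, for knockout against wildtype or for the interaction of genotype and silica at any time. What moved was the level with time: from 3 to 9 months after exposure, 35 of the 37 members rose in the lungs of air mice and 28 rose in those of silica mice, and none fell in either. The median rise of the members was 0.68 on the log2 scale in air and 0.44 after silica. The rise spanned every structural class of the axoneme, while Sec14l3, the most abundant member, and Rfx3 had the smallest changes in air, and Sec14l3 and Rfx2 were the members that did not pass. Sec14l3 did pass in air when the 6 libraries that correlated least with others of their group were left out.

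Levels are normalised CPM, that is, a gene's share of a library's counts scaled by the trimmed mean of M values. Foxj1 was counted in every library, between 21.1 and 135 CPM. Every measured member had counts in all 70 libraries except Cfap126, which was at 0 in 1 library of the knockout air group at 1 day. Detection in bulk lung RNA does not show which cells the RNA came from. Per kilobase of exon, which allows levels of different genes to be compared, 4 members stood above the rest, which reached at most 12 CPM per kilobase. Sec14l3, a SEC14-like lipid-binding protein of the airway epithelium, averaged 557 CPM per kilobase. Tppp3, a tubulin polymerization-promoting protein, averaged 126 CPM per kilobase. Dynlrb2, a roadblock light chain of dynein, averaged 24.8 CPM per kilobase, and Foxj1, at chr11:116330704-116335399 on the minus strand of GRCm38, averaged 22.7 CPM per kilobase. The long heavy chain genes lay lower, from 9.86 CPM per kilobase for Dnah6 down to 1.16 CPM per kilobase for Dnah7b.

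**Figure D1:**
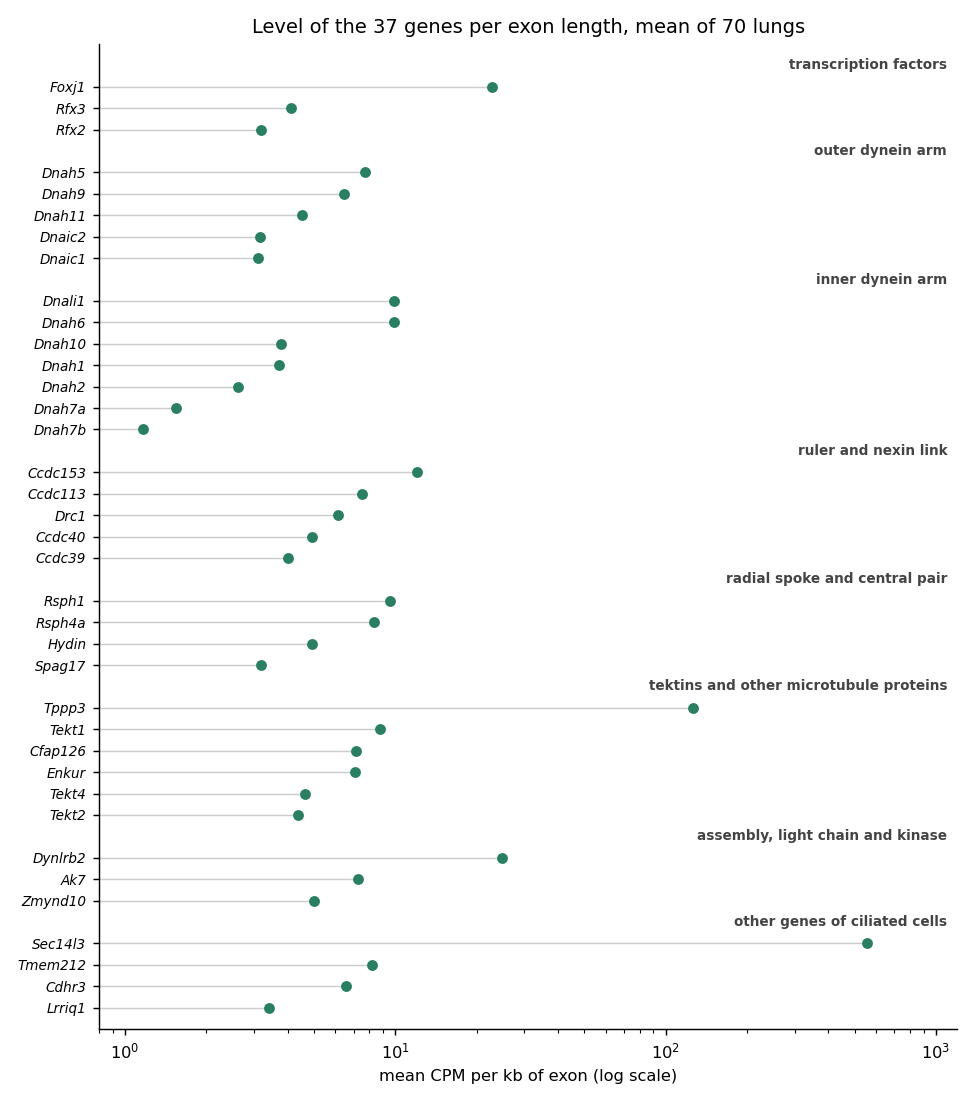
Mean level of each of the 37 measured members over 70 lungs, in CPM per kilobase of exon on a log axis, grouped by role. Sec14l3 at 557, Tppp3 at 126, Dynlrb2 at 24.8 and Foxj1 at 22.7 stand to the right of all others, and Dnah7b at 1.16 is the lowest.

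Counting error limits the low members: mean counts per library ran from 13.3 for Tmem212 to 3530 for Sec14l3. Dnah7a and Dnah7b are uncertain as separate genes, because 40.3% of the 50-base words of the Dnah7a transcript and 48.4% of those of Dnah7b also occur in another gene, mainly each other or Dnah7c. In 13 members an exon overlaps a gene on the opposite strand in the GENCODE annotation, for example Dnaic1 with Enho, Ccdc39 with Ttc14 and Spag17 with Wdr3. The strand setting of the counting is not given in the sources used here, so reads of such neighbours may be included.

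The promoters of the members were searched because the transcription factors among them act there. RefSeq (GRCm38.p6) holds a promoter for 33 of the 37 measured members; Foxj1, Rsph1, Rsph4a and Tppp3 have no entry. The core letters of RFX sites, GTTGCC on either strand, occurred in the 300 bases around the start of 18 of these 33 members (54.5%), against 14.1% of 27025 genes. From 60 bases before to 20 bases after the start they occurred in 12 members (36.4%), against 4.65% of genes. The longer X-box pattern, GTNNCC followed after 3 bases by GNAAC, which the core letters can overlap, lay in that window in 5 members (15.2%), Enkur, Hydin, Lrriq1, Tekt4 and Zmynd10, against 0.999% of genes. The forkhead core TAAACA occurred in the 300 bases of 9 members (27.3%), against 15.1% of genes, and near the start in 3 members (9.1%), against 3.61%. These are matches of letters and do not show that a factor binds there. The sequences of the 5 members with the long pattern are shown from 100 bases before the start to 20 bases after it, with matches to GTTGCC (either strand) or to the long pattern in capitals:
Enkur (chr2:21205346-21205465, minus strand): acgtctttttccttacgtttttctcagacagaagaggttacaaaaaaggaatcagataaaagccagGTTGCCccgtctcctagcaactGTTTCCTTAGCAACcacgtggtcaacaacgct
Hydin (chr8:110266877-110266996, plus strand): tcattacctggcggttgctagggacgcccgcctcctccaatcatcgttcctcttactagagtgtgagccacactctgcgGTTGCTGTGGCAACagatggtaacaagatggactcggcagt
Lrriq1 (chr10:103236303-103236422, minus strand): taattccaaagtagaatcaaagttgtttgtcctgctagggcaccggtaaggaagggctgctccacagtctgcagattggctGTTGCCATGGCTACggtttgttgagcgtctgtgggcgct
Tekt4 (chr17:25471490-25471609, plus strand): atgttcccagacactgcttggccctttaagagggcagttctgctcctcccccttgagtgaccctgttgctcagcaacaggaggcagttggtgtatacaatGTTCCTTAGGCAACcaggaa
Zmynd10 (chr9:107547204-107547323, plus strand): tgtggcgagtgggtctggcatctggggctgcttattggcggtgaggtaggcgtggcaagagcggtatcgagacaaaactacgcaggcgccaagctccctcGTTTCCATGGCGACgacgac
In Tekt4 and Zmynd10 the long pattern begins at the start itself, and in the others it lies across the start or just before it. Enkur is a protein inside the axonemal microtubules, Hydin a central pair protein, Tekt4 a tektin filament protein and Zmynd10 a factor that helps assemble dynein arms before they enter the cilium.

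Dnah10, Drc1 and Dnaic2 are among the members with the largest rises with time, and they hold the short letters without the long pattern near the start:
Dnah10 (chr5:124724985-124725104, plus strand): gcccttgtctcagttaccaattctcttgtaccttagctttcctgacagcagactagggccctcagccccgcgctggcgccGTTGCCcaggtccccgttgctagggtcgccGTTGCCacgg
Drc1 (chr5:30281293-30281412, plus strand): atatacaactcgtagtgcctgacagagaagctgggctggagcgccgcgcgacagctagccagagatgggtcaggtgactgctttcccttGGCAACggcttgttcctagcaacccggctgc
Dnaic2 (chr11:114727319-114727438, plus strand): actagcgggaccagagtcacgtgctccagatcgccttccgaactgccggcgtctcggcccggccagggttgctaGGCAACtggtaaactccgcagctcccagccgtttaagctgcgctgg
Dnah10 (an inner arm heavy chain) holds the letters on both sides of its start, and Drc1 (the nexin link) and Dnaic2 (an outer arm intermediate chain) hold them on the other strand as GGCAAC. Ccdc153, whose rise in air was as large (0.88 log2), holds the letters only farther away, at -152 to -147 from its start. Whether the letters go with the size of the rise was not tested.

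Library totals ran from 802478 to 5596318 counts, and the members together took 0.1444% to 0.4574% of them. Slc26a4 itself was lower in every knockout library than in every wildtype library it is matched with by exposure and time, apart from the air mice at 9 months; its counts may include reads outside the deleted part. In wildtype air at 1 day it lay between 4.22 and 12.6 CPM and in knockout air between 0.982 and 3.24 CPM. At 9 months in air the ranges overlapped, 6.42 to 74.2 CPM in wildtype and 1.32 to 51.7 CPM in knockout, and the library labelled knockout air replicate 4 at 51.7 CPM went against its label. 6 libraries correlated least with others of their group: knockout air 1 day replicate 3 (the shallowest), knockout silica 1 day replicate 3, knockout silica 3 months replicate 3, wildtype air 9 months replicate 5, and knockout air 9 months replicates 4 and 5. The 9-month libraries among them had 2997 to 8011 CPM of Chil3, a macrophage chitinase-like gene, against a median of 429 CPM in wildtype air at 3 months. Where leaving these libraries out changed a call or moved a value by over 1.5 times, the value without them is given beside several results or counted further below.

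In the air mice the rise from 3 to 9 months was tested over both genotypes in one fit of all 70 libraries. Of 37 members, 35 were higher and none lower at adjusted p under 0.05 by edgeR's quasi-likelihood test, where 29.2% of all genes tested passed in either direction and 15.7% passed upward. The median log2 change over all genes was 0.02. Mice at 9 months after exposure are also older and were handled at another time, so that time since exposure, age and handling cannot be told apart, and air mice show the change with no silica at all.

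The outer dynein arms generate most of the beat force, and all 5 of their members rose. Dnah5, a heavy chain, lay at 97.2 to 141 CPM (median 112) in 12 air mice at 3 months and at 121 to 299 CPM (median 174) in 11 air mice at 9 months, with a log2 change of 0.71 (SE 0.10, adjusted p = 3.29e-08). Dnah9, the other broadly used outer arm heavy chain, went from 77.3 to 116 CPM (median 87.4) to 119 to 208 CPM (median 146), and every 9-month air library lay above every 3-month one. Its log2 change was 0.73 (SE 0.09, adjusted p = 6.74e-10). Dnaic2, an intermediate chain at the arm's base, had the largest log2 change of all members in air, 0.95 (SE 0.13, adjusted p = 2.2e-08). Its values went from 8.37 to 16.1 CPM (median 12.8) to 16.3 to 30.8 CPM (median 26), also with no overlap.

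The inner dynein arms shape the bend, and all 7 measured members rose. Dnah6, the most abundant of the inner arm heavy chains, lay at 90 to 146 CPM (median 112) in air at 3 months and at 145 to 285 CPM (median 196) at 9 months, with a log2 change of 0.79 (SE 0.09, adjusted p = 3.53e-10). The groups overlapped by a narrow margin. Dnah10 had the smallest adjusted p of the members, with a log2 change of 0.88 (SE 0.10, adjusted p = 3.27e-10), from 36.1 to 72.3 CPM (median 53.8) to 69 to 157 CPM (median 92.7). Dnah2 rose least in this class, by 0.38 log2 (SE 0.10, adjusted p = 0.00121).

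Ccdc39 and Ccdc40 form the ruler that sets the spacing of arms and spokes along the doublet, and Drc1 and Ccdc153 belong to the nexin link. All 5 members of this class rose, and their median change, 0.84 log2, was the highest of the 8 roles. Ccdc153 lay at 13.2 to 25.1 CPM (median 21.9) in air at 3 months and at 26.4 to 44.9 CPM (median 40.3) at 9 months, with no overlap and a log2 change of 0.88 (SE 0.11, adjusted p = 1.11e-09). Drc1 went from 10.5 to 18.2 CPM (median 13.8) to 19.1 to 33.8 CPM (median 25.3), again with no overlap. Ccdc39, the most abundant of the class, overlapped slightly, at 21.9 to 30.8 CPM (median 26.3) and then 29.9 to 60.2 CPM (median 41.5). Complete separation of the 9-month from the 3-month air libraries was thus seen in 4 of 37 members (10.8%), Dnah9, Dnaic2, Ccdc153 and Drc1, and in 61 of 13252 genes (0.46%).

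The radial spokes and central pair, the tektins and other microtubule proteins, and the assembly and kinase genes rose in all of their 4, 6 and 3 members. Hydin, the most abundant central pair member, went from 74.5 to 99 CPM (median 81.6) to 69 to 164 CPM (median 127), and its lowest 9-month mouse lay below the lowest 3-month mouse. Tppp3 changed less than most, from 173 to 307 CPM (median 221) to 201 to 500 CPM (median 291), with a log2 change of 0.41 (SE 0.10, adjusted p = 0.00113). Its groups overlapped between 201 and 307 CPM. Ak7, an adenylate kinase that helps supply the cilium with ATP, went from 18.1 to 37.4 CPM (median 25.6) to 32.7 to 72.3 CPM (median 45.9).

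Among the transcription factors Foxj1 rose by 0.70 log2 in air (SE 0.13, adjusted p = 2.43e-05), from 37.7 to 71.9 CPM (median 53.8) to 51.1 to 135 CPM (median 75.7). Rfx3, which is also expressed outside ciliated cells, rose by 0.24 log2 (SE 0.07, adjusted p = 0.00552). Rfx2 had a log2 change of 0.26 that missed the threshold (SE 0.13, adjusted p = 0.139). Sec14l3 was the other member that did not pass, at 1353 to 1721 CPM (median 1554) at 3 months and 1168 to 1921 CPM (median 1812) at 9 months (log2 change 0.16, SE 0.07, adjusted p = 0.073). Without the 6 libraries that stand apart, Sec14l3 passed by edgeR (log2 change 0.25, SE 0.04, adjusted p = 8.22e-06). The 3-month values of Sec14l3 lay inside the range of the 9-month ones.

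**Figure D2:**
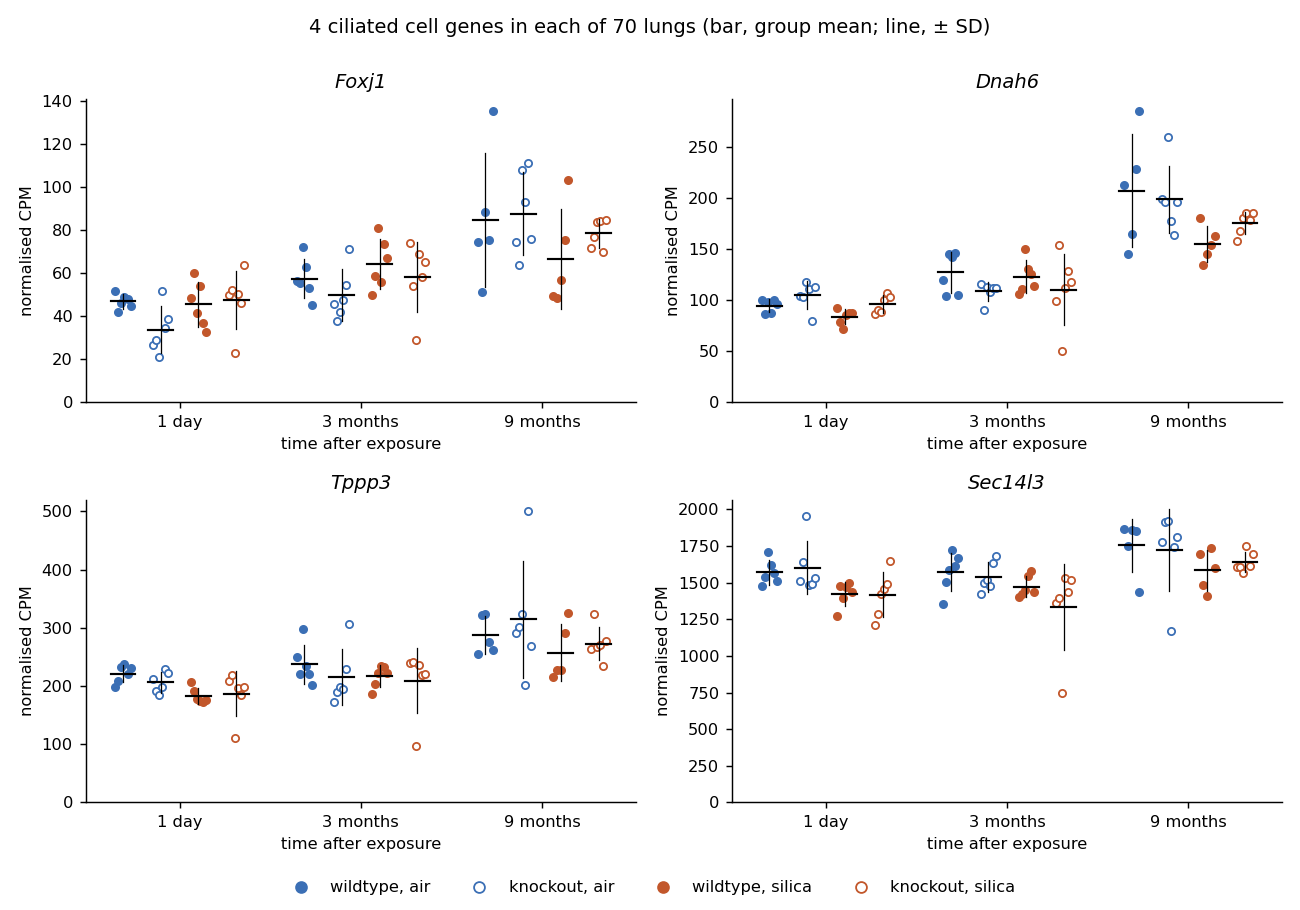
Normalised CPM of Foxj1, Dnah6, Tppp3 and Sec14l3 in each of the 70 lungs against time after exposure, filled for wildtype and open for knockout, blue for air and orange for silica, with the group mean (bar) and SD (line). Dnah6 reaches 145 to 285 CPM in air at 9 months against 90 to 146 CPM at 3 months, and the knockout silica mouse at 3 months with 50.3 CPM of Dnah6 is also the lowest for Tppp3 and Sec14l3.

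**Figure D3:**
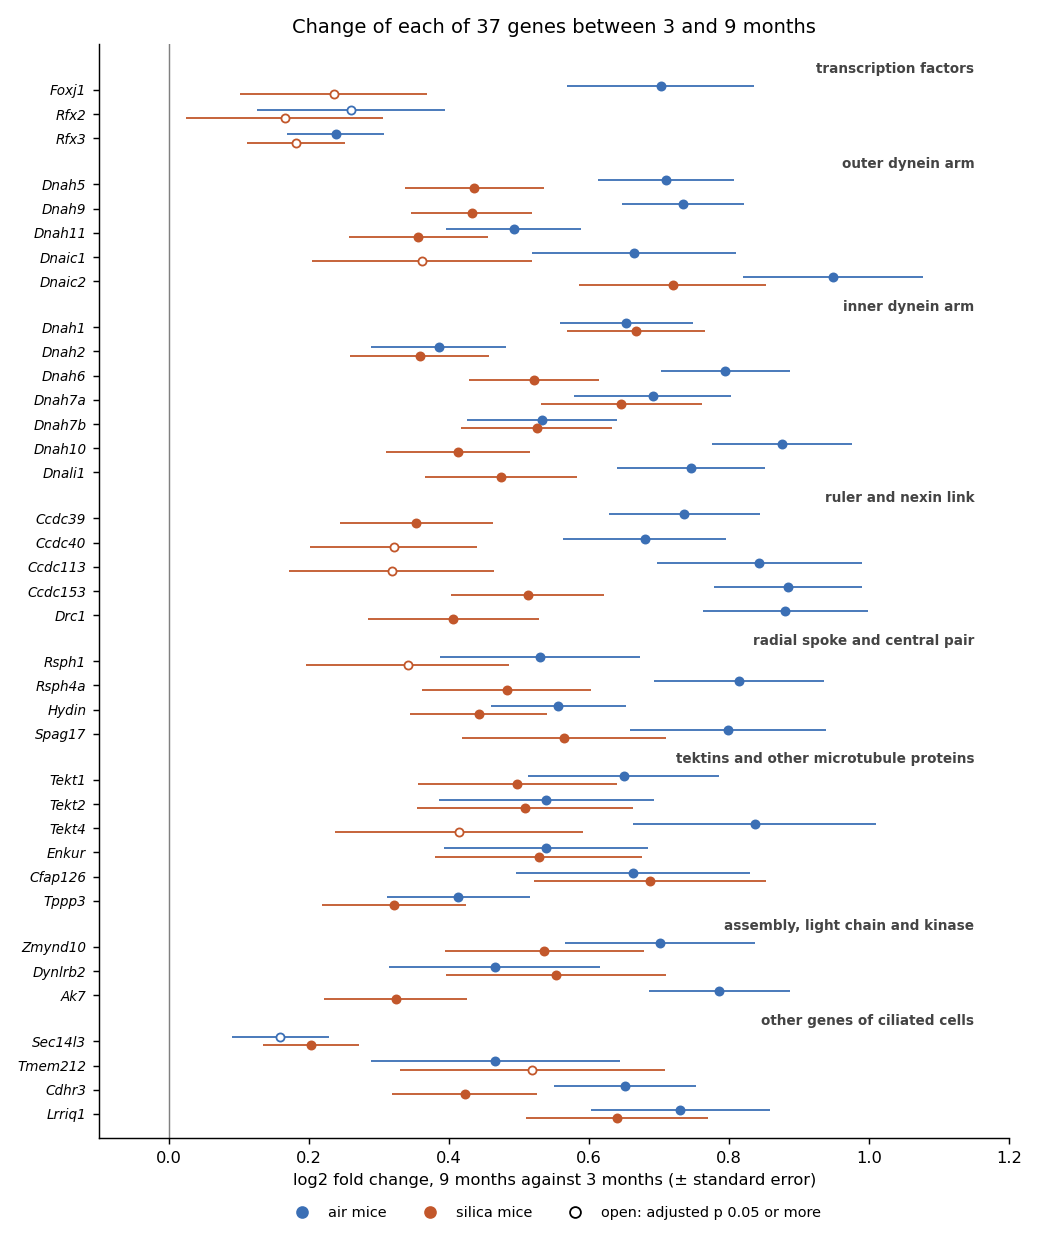
Log2 change from 3 to 9 months of each measured member, in air and after silica, with members ordered by role. Bars are the standard error and filled points passed at adjusted p under 0.05; all points lie above 0 in both exposures, with medians of 0.68 in air and 0.44 after silica.

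In silica mice 28 of 37 members were higher at 9 than at 3 months and none lower, where 11.6% of all genes passed in either direction and 5.46% upward. All 7 inner arm members and all 3 of assembly, light chain and kinase rose, together with 4 of 5 outer arm members, 3 of 5 of the ruler and nexin link, 3 of 4 of the spoke and central pair, 5 of 6 of the tektins and other microtubule proteins and 3 of 4 of the other genes. Dnah1, an inner arm heavy chain, had the smallest adjusted p, going from 24.5 to 51.9 CPM (median 39.3) to 48.9 to 79 CPM (median 62.6), with a log2 change of 0.67 (SE 0.10, adjusted p = 2.26e-06). Dnah6 went from 50.3 to 154 CPM (median 116) to 134 to 185 CPM (median 168), a log2 change of 0.52 (SE 0.09, adjusted p = 5.64e-05). Both groups of silica mice overlapped for every member, where 0.0302% of all genes did not overlap in that direction, and the lowest 3-month values of Dnah6 and of most members came from knockout silica replicate 3.

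Dnah7a, an inner arm heavy chain whose reads may be shared with Dnah7b, went from 9.29 to 22.3 CPM (median 17.9) to 18.7 to 31.4 CPM (median 26.9) after silica (log2 change 0.65, SE 0.12, adjusted p = 5.64e-05). Dnaic2 went from 8.03 to 18.7 CPM (median 10.6) to 15.6 to 23.2 CPM (median 21.1), with a log2 change of 0.72 (SE 0.13, adjusted p = 0.000111). None of the 3 transcription factors passed after silica. Foxj1 had 28.7 to 80.9 CPM (median 61.7) at 3 months and 48.2 to 103 CPM (median 75.1) at 9 months, with a log2 change of 0.24 (SE 0.13, adjusted p = 0.285). Sec14l3 passed narrowly, with a log2 change of 0.20 (SE 0.07, adjusted p = 0.0419), and had 0.13 (adjusted p = 0.127) without knockout silica 3 months replicate 3.

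The 27 members that rose in both exposures are 77.1% of the 35 in air and 96.4% of the 28 after silica. Ccdc113, Ccdc40, Dnaic1, Foxj1, Rfx3, Rsph1, Tekt4 and Tmem212 passed in air alone and Sec14l3 after silica alone. A difference in passing is not a difference in change, and the difference itself was tested: in no member did the silica change from 3 to 9 months differ from the air change at adjusted p under 0.05 by edgeR, where 0.732% of all genes passed. 10 members were under an unadjusted p of 0.05 and DESeq2 called none. The silica change was the smaller in 32 of 37, with a median difference of -0.19 log2, and the smallest adjusted p belonged to Ak7 (difference -0.46, SE 0.14, adjusted p = 0.1). Without knockout silica 3 months replicate 3, 2 members passed, and without wildtype air 9 months replicate 2, 1 did.

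The mean over the 37 members in a mouse, on the log2 CPM scale, gives the same picture as a description. It lay between 4.42 and 4.73 (median 4.57) in air mice at 1 day, between 4.67 and 5.04 (median 4.79) at 3 months and between 5.05 and 5.80 (median 5.36) at 9 months. After silica it lay between 4.34 and 4.68 (median 4.48), between 3.94 and 5.09 (median 4.85) and between 4.92 and 5.45 (median 5.30). The lowest value, 3.94, was knockout silica replicate 3 at 3 months, whose group otherwise ran from 4.72 to 4.99.

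Split by genotype, in comparisons added after the values were seen, 28 members rose from 3 to 9 months in wildtype air mice (12.2% of genes either way, 6.34% upward) and 28 in knockout air mice (19.3% and 9.8%). Without wildtype air 9 months replicate 5, the count in wildtype air was 10. In knockout silica mice 27 rose (6.97% and 3.23%), and 20 did without 3 months replicate 3. In wildtype silica mice none passed (1.56% of genes), with 11 under an unadjusted p of 0.05, none called by DESeq2 and the smallest adjusted p 0.0959 for Dnah7a (log2 change 0.52, SE 0.17). The count there was 5 without the 6 libraries that stand apart (5.45% of genes) and 3 when the compared groups alone were fitted (4.73%).

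The change from 3 to 9 months after silica was then compared between the genotypes directly. No member passed, and 0% of the genes tested did, while 14 members were under an unadjusted p of 0.05 and DESeq2 called none. The knockout change was the larger in 35 of 37 members, with a median difference of 0.38 log2, which was 0.24 without knockout silica 3 months replicate 3. Spag17, a central pair protein, had the smallest p (difference 1.08, SE 0.29, unadjusted p = 0.000387, adjusted p = 0.466), and its difference was 0.90 (adjusted p = 0.866) without that library. In wildtype silica mice Spag17 lay at 10.8 to 36.1 CPM (median 25.9) at 3 months and at 23.8 to 31.3 CPM (median 26) at 9 months, and in knockout silica mice at 7.6 to 34.4 CPM (median 18.7) and then 34.6 to 47.5 CPM (median 41.7). In air mice the same difference passed in no member, none was under an unadjusted p of 0.05, and 0% of genes passed.

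Between 1 day and 3 months the change was smaller. In air no member passed (0.113% of genes), 20 of 37 were under an unadjusted p of 0.05 and DESeq2 called 1, Dnah1 (0.196% of genes). The median log2 change was 0.24, and Dnah1 went from 28 to 48.8 CPM (median 34.8) to 34.5 to 60.9 CPM (median 45.9), a log2 change of 0.40 (SE 0.10, adjusted p = 0.0728). Dnah2 had the next smallest p, with a log2 change of 0.35 (SE 0.10, adjusted p = 0.161). Fitting the compared groups alone called 8 members (0.781% of genes), Foxj1, Dnah5 and Hydin among them.

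After silica 12 members rose from 1 day to 3 months and none fell (4.38% of genes either way, 2.25% upward), with a median of 0.32 log2 over the members. This comparison shares its 3-month mice with the one from 3 to 9 months. Ak7 rose by 0.53 log2 (SE 0.11, adjusted p = 0.00119), from 16.8 to 27.1 CPM (median 20.3) to 17.3 to 36.3 CPM (median 30.7). Dnah9 rose by 0.40 log2 (SE 0.09, adjusted p = 0.00354), from 59.3 to 99.2 CPM (median 71.6) to 46.5 to 120 CPM (median 102). Hydin and Dnali1, the light intermediate chain of inner arms, rose by 0.41 and 0.48 log2 (adjusted p = 0.00801 and 0.0088), and the others were Dnah6, Drc1, Cdhr3, Ccdc153, Ccdc40, Dnah10, Dnah1 and Ccdc113. In all of them the groups overlapped, and without knockout silica 3 months replicate 3 the count was 19. The difference between the silica and air changes over these months passed in no member (0.0755% of genes), with 2 under an unadjusted p of 0.05 and none called by DESeq2. Over the whole span from 1 day to 9 months, 36 members rose in air (35.2% of genes either way, 19% upward) with a median of 0.94 log2, and 36 after silica (23.4% and 11.9%) with a median of 0.80.

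**Figure D4:**
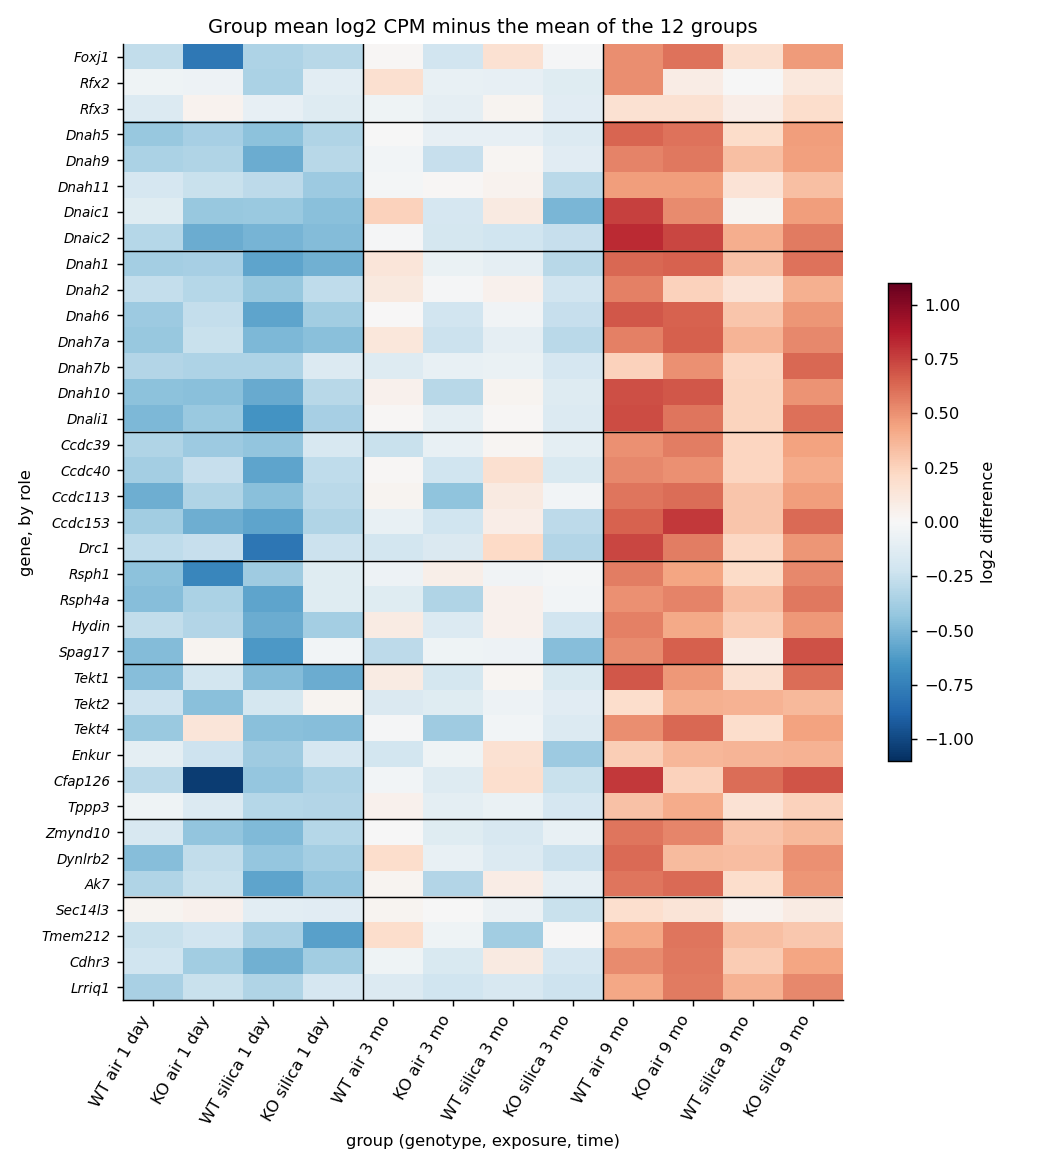
Mean log2 CPM of each measured member in each of the 12 groups, minus the mean of the groups, with members in rows by role and red for higher. Nearly all rows turn from blue at 1 day to red at 9 months, and among the 9-month columns wildtype silica is the palest in most rows.

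Other cilia genes moved in the same comparison in air, where 15.7% of all genes rose from 3 to 9 months. Their lists hold genes outside the members, but were likewise chosen with earlier results of these data known. Of 40 tested further axoneme genes (47 listed) 31 rose and none fell from 3 to 9 months, with a median of 0.59 log2. Cfap44 rose by 0.75 (adjusted p = 1.12e-08) and Spag6, a central pair gene, by 0.82 (adjusted p = 6.75e-08). Of 14 tested genes of dynein arm assembly and docking (16 listed) 11 rose and none fell, with a median of 0.66. Armc4, of the outer arm docking complex, rose by 0.78 (adjusted p = 2.04e-05), and Dyx1c1, an arm assembly factor, by 0.97 (adjusted p = 5.25e-05). Of 20 tested further ciliated cell markers (22 listed) 17 rose and none fell, with a median of 0.62, led by Cd24a (0.67, adjusted p = 1.67e-09) and Ccdc78 (0.94, adjusted p = 4.83e-09).

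Intraflagellar transport, which carries building blocks into motile and non-motile cilia alike, had 11 of 26 tested genes (27 listed) that rose and none that fell, with a median of 0.24, beside the 15.7% of all genes that rose, Dync2li1 by 0.61 (adjusted p = 2.2e-05) and Ift88 by 0.39 among them. Of 8 tested regulators of multiciliogenesis (12 listed), the programme that multiplies centrioles in these cells, 3 rose and none fell: Ccdc67, also known as Deup1, by 0.94 (adjusted p = 0.00415), Myb by 0.42 (adjusted p = 0.00478) and Trp73 by 0.57 (adjusted p = 0.00497). After silica the counts from 3 to 9 months were 20 higher and 1 lower of 40 axoneme genes, 3 higher of 14 for assembly and docking, 12 higher of 20 markers, 4 higher of 26 for transport and 0 of 8 for regulators. Of all genes tested 5.46% were higher there. Spag6 (0.70, adjusted p = 3.48e-05), Ttc25 (0.71, adjusted p = 0.00107), Capsl (0.84, adjusted p = 5.37e-05) and Ift88 (0.48, adjusted p = 0.000205) were the first of their lists.

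Markers of other cell types moved in the same comparison. Of all 13252 genes tested in air, 2086 rose and 1789 fell from 3 to 9 months. From 3 to 9 months in air, 8 of 8 macrophage markers rose (median 1.28 log2) and their summed level went from 682 to 800 CPM to 1077 to 9649 CPM. All 6 tested neutrophil markers rose (median 1.00), from a sum of 26.6 to 121 CPM to 95.6 to 381 CPM. Of 11 tested markers of club and other airway secretory cells (14 listed) 8 rose and 1 fell, and the summed level went from 12304 to 16311 CPM to 8833 to 21769 CPM; the secretory genes Scgb3a1 and Ltf rose by 3.04 and 2.48 log2, while the club cell genes Scgb1a1 (0.12, adjusted p = 0.35) and Cyp2f2 (0.07, adjusted p = 0.64) did not pass. Smooth muscle markers fell in 3 of 8, and their sum went from 1204 to 1666 CPM to 800 to 1334 CPM.

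After silica the macrophage markers rose in 5 of 8 (sum 719 to 2125 CPM, then 1169 to 3269 CPM), the neutrophil markers in 1 of 6 (sum 71.5 to 318 CPM, then 106 to 224 CPM) and the secretory markers in 3 of 11 (sum 5306 to 15689 CPM, then 11018 to 19555 CPM), and smooth muscle markers fell in 5 of 8. Of all 13252 genes tested after silica, 723 rose and 817 fell. Summed basal cell markers were at most 6.99 CPM in any library, cartilage markers at most 2.95 CPM and sperm and testis markers, whose cells share axoneme genes, at most 1.79 CPM. The part of these other cells, or of how much airway the piece of lung held, in the rise of the members was not tested. Without the 6 libraries that stand apart, among them the 3 libraries with the highest Chil3 values, 35 members rose from 3 to 9 months in air (19% of genes) and 28 after silica (15.7%). The members in air were not the same ones: Sec14l3 was gained and Tmem212 was lost (edgeR adjusted p = 0.0796).

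Silica was compared with air within each time to see whether the cilia genes respond to the dust. At 1 day no member passed in wildtype mice (2.37% of genes passed), in knockout mice (1.93%) or over both genotypes (4.59%); 5, 4 and 7 members were under an unadjusted p of 0.05, and DESeq2 called 0, 0 and 1. The 1 was Sec14l3 over both genotypes (edgeR log2 difference -0.16, SE 0.05, adjusted p = 0.0611), where DESeq2 called 5.01% of genes. In wildtype mice 32 of 37 members were below 0 with a median of -0.14 log2. Hydin had the smallest p there, with 62.4 to 79 CPM (median 72.2) in air and 48.7 to 70.5 CPM (median 58.2) after silica (log2 difference -0.29, SE 0.09, adjusted p = 0.108).

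Drc1 followed, with 11.1 to 14.4 CPM (median 12.8) in wildtype air and 6.69 to 11.5 CPM (median 8.35) after silica (log2 difference -0.54, SE 0.18, adjusted p = 0.116). Tppp3 was second over both genotypes (log2 difference -0.21, SE 0.07, adjusted p = 0.0879). In knockout mice the member with the smallest p was Foxj1, with 21.1 to 51.8 CPM (median 31.5) in air and 22.9 to 63.7 CPM (median 50) after silica (log2 difference 0.50, SE 0.18, adjusted p = 0.207). The range of the air group lay almost wholly inside that of the silica group. Without the 6 libraries that stand apart, Tppp3 passed in wildtype mice (-0.27, adjusted p = 0.00719) and over both genotypes (-0.17, adjusted p = 0.0267), and Foxj1 passed in knockout mice (0.59, adjusted p = 0.0278). In that setting 4.48%, 5.13% and 1.83% of all genes passed in these comparisons in the same order.

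At 3 months none passed in wildtype mice (2.96% of genes), knockout mice (4.8%) or over both (7.95%), with 4, 1 and 3 members under an unadjusted p of 0.05 and none called by DESeq2. The medians were 0.05, -0.02 and 0.02 log2, and without knockout silica 3 months replicate 3 those in knockout mice and over both were 0.11 and 0.08. Drc1 in wildtype mice went from 10.5 to 18.2 CPM (median 13.4) in air to 14.5 to 21.5 CPM (median 19) after silica (log2 difference 0.44, SE 0.18, adjusted p = 0.241), opposite in sign to its difference at 1 day. Over both genotypes Dnah1 (-0.23, SE 0.09, adjusted p = 0.123) and Rsph4a, a radial spoke head protein (0.25, SE 0.12, adjusted p = 0.223), had the smallest p, and in knockout mice Sec14l3 did (-0.21, SE 0.10, adjusted p = 0.286; -0.09, adjusted p = 0.516, without the 6 libraries). Without the 6 libraries, Dnah10 (0.37, adjusted p = 0.0354) and Dnah9 (0.33, adjusted p = 0.0145) passed in knockout mice, and Dnah9 (0.20, adjusted p = 0.0203) and Foxj1 (0.28, adjusted p = 0.047) over both. In that setting 3.72% of all genes passed in knockout mice and 7.81% over both.

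At 9 months none passed in wildtype mice (0.0234% of genes), knockout mice (0.179%) or over both (0.242%), with 16, 0 and 13 members under an unadjusted p of 0.05 and none called by DESeq2. In wildtype mice 36 of 37 members were lower after silica than in air, with a median of -0.32 log2; without wildtype air 9 months replicate 5 the median was -0.20. Dnaic1, an outer arm intermediate chain, had the smallest p, with 10.3 to 18.2 CPM (median 14.3) in 5 air mice and 5.34 to 11 CPM (median 7.84) in 5 silica mice (log2 difference -0.78, SE 0.23, adjusted p = 0.457). Drc1 lay at 19.5 to 31.4 CPM (median 28.6) in air and 15.6 to 21.9 CPM (median 19.2) after silica (log2 difference -0.54, SE 0.16, adjusted p = 0.457). Over both genotypes Dnah6 (-0.30, SE 0.09, adjusted p = 0.231) and Dnah10 (-0.36, SE 0.12, adjusted p = 0.247) had the smallest p, and without the 6 libraries Dnah6 (-0.27, adjusted p = 0.0366) and Sec14l3 (-0.19, adjusted p = 0.0106) passed. In that setting 3.87% of all genes passed over both genotypes.

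**Figure D5:**
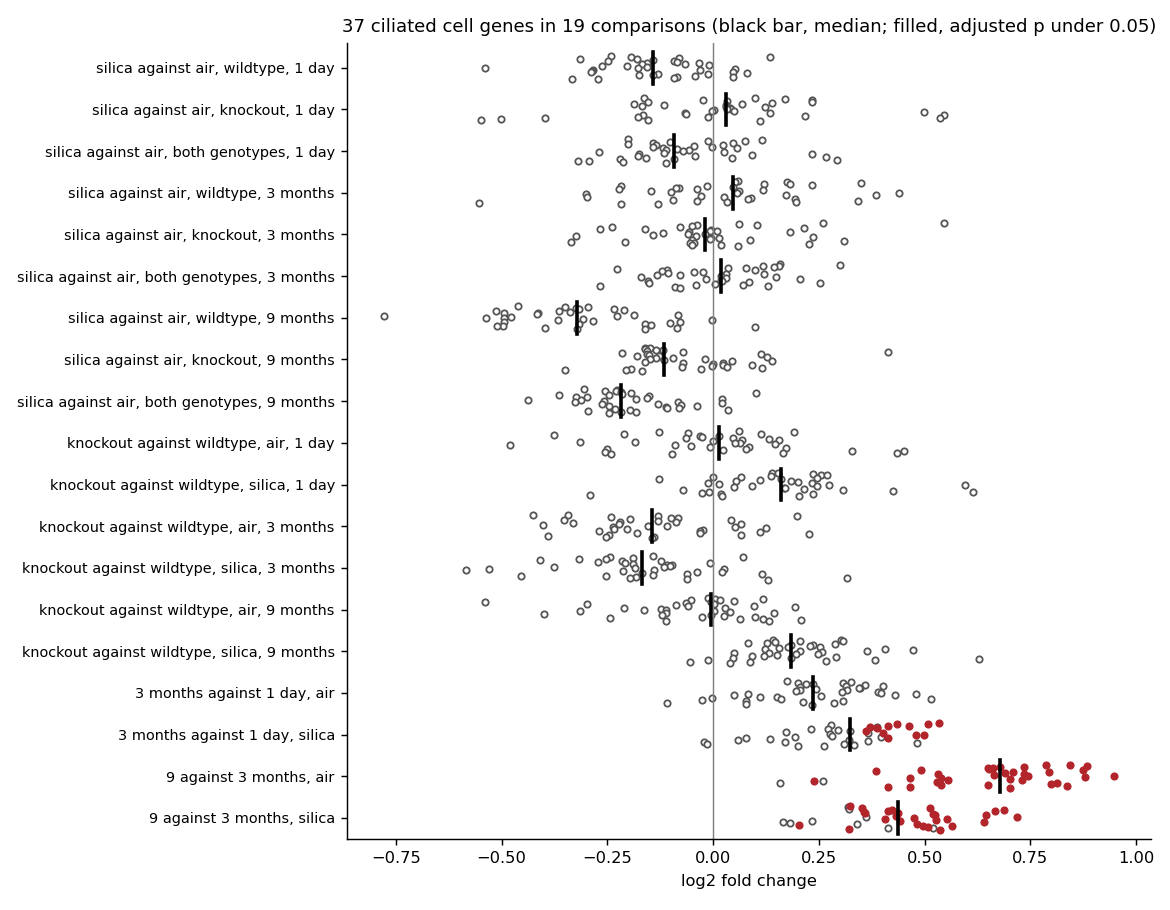
Log2 differences of the 37 measured members in the comparisons of silica, genotype and time, each point 1 member, filled where it passed at adjusted p under 0.05, with the median as a bar. Within a time the medians lie between -0.32 and 0.18 and no point is filled, and from 3 to 9 months the medians lie at 0.68 in air and 0.44 after silica.

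Knockout was compared with wildtype to see whether loss of Slc26a4 alters the cilia genes with or without dust. In air no member passed at 1 day (0.0478% of genes), 3 months (0.142%) or 9 months (0.0156%), with 2 members at each time under an unadjusted p of 0.05. After silica none passed at 1 day (0.00796%), 3 months (0.174%) or 9 months (0%), with 6, 3 and 5 members under that p, and DESeq2 called none in any of these 6 comparisons. Foxj1 in air at 1 day had the smallest p of that group, with 41.6 to 51.6 CPM (median 47) in wildtype and 21.1 to 51.8 CPM (median 31.5) in knockout mice (log2 difference -0.48, SE 0.17, adjusted p = 0.325). The highest knockout mouse lay above all wildtype mice.

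Spag17 had the smallest p after silica at 1 day and at 9 months. At 9 months it lay at 23.8 to 31.3 CPM (median 26) in wildtype and at 34.6 to 47.5 CPM (median 41.7) in knockout silica mice, with no overlap (log2 difference 0.63, SE 0.16, unadjusted p = 0.000527, adjusted p = 1). In air at 9 months its ranges overlapped, at 24.1 to 49 CPM (median 44.2) and 31.3 to 48.5 CPM (median 41). At 1 day after silica the log2 difference was 0.61 (SE 0.18, adjusted p = 0.398). The exons of Spag17 overlap Wdr3 and an antisense gene on the opposite strand, so its counts may hold reads of these.

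At 3 months the smallest p in air belonged to Dnah10 (-0.35, SE 0.14, adjusted p = 0.337) and Ak7 (-0.34, SE 0.15, adjusted p = 0.39), and after silica to Enkur (-0.59, SE 0.20, adjusted p = 0.266) and Drc1 (-0.53, SE 0.19, adjusted p = 0.318). In air at 9 months Cfap126, a protein of the basal body and axoneme, was first (-0.54, SE 0.23, adjusted p = 0.445). The members' medians were 0.01, -0.14 and -0.01 log2 in air at the 3 times in order, and 0.16, -0.17 and 0.18 after silica, where 35 of 37 were above 0 at 9 months. Without the 6 libraries the median was 0.16 in air at 9 months and -0.04 after silica at 3 months. The interaction, the knockout silica effect minus the wildtype one, passed in no member at any time (0% of genes at each time), with 2, 3 and 5 under an unadjusted p of 0.05 and none called by DESeq2. At 9 months 34 of 37 members had an interaction above 0 with a median of 0.21 log2, and 0.03 without the 6 libraries; Dnah2 had the smallest p (0.53, SE 0.21, adjusted p = 0.599), and 0.24 (adjusted p = 0.772) without those libraries.

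The reach of these counts of 0 was estimated for genes drawn at random from all genes tested, and was not simulated for the members themselves. On simulated counts with the real means and depths, the silica comparison over both genotypes at 1 day recovered 82% of genes changed 1.5-fold and 100% of those changed 2-fold. The wildtype comparison at 9 months, with 5 mice a group, recovered 48% and 77.6%. A change of that size in 1 member could thus be missed there. The simulations held planted changes in many genes at once, which affects how strict the adjusted threshold is. They gave 170 calls at 1 day and 116 in the wildtype comparison at 9 months, where the real data gave 576 and 3. Recovery in the real wildtype comparison at 9 months may therefore be lower than these shares.

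Between mice of a group the members varied somewhat more than other genes, with a median SD within groups of 0.29 log2 CPM, against 0.25 over 13252 genes. Rfx3 (0.16) and Sec14l3 (0.17) were the steadiest members, and Cfap126 (0.57) and Tekt4 (0.43), both of low count, the least steady. The members also rose and fell together from mouse to mouse: after group means were removed, the median correlation over their 666 pairs was 0.31 (70 mice), against 0 over pairs of all genes. It was 0.23 without knockout silica 3 months replicate 3, and it shares library depth and the piece of lung taken. The same median was not computed for markers of another cell type, so it is not shown to be particular to the members.

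Foxj1 was tested against each of the 36 other members and 11 markers of club and other airway secretory cells over the 70 mice, by permutation of its deviations within groups and adjustment over all 47 pairs. It correlated with 21 members by Pearson's r and with 15 by Spearman's rho at adjusted p under 0.05. The strongest partner was Tppp3 (r = 0.62, rho = 0.61, permutation p = 5e-05 and 1e-05, adjusted p = 0.000587 and 0.00047), with r = 0.67 without the 2 mice farthest from the Foxj1 median; 1e-05 is the smallest p the 100000 permutations can give. Dynlrb2 (r = 0.59, rho = 0.52) and Dnaic2 (r = 0.58, rho = 0.53) followed, and Tmem212 (r = -0.02), Ccdc39 (r = 0.03) and Spag17 (r = 0.03) had the lowest r. Of the 11 secretory markers 5 passed: Chad (r = 0.42, rho = 0.41), Muc5b, Gabrp, Ltf and Bpifb1. The club cell genes Scgb1a1 (r = 0.17), Cyp2f2 (r = 0.17) and Scgb3a2 (r = 0.02) did not. Fewer pairs passed in subsets of the mice. By Pearson's r, 2 members passed in air mice alone and 11 without the 6 libraries that stand apart, and no secretory marker passed in either. The size of r in these subsets was not compared. Whether fewer mice or the libraries left out account for the lower counts was not tested.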

How the data were processed

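Total RNA of a piece of lung from each of 70 mice was depleted of ribosomal RNA and sequenced as stranded libraries, per the labels' protocols. The authors deposited a table of raw read counts per gene, made with bcl2fastq 2.19, Trimmomatic 0.35, HISAT2 2.1.0, SAMtools 1.8 and HTSeq 0.11.2 on mm10, per the submitters' processing notes; Cufflinks is also named there, and the annotation and strand setting are not given in the sources used here. Of 24439 rows, 16 repeats were dropped. The counts were tested with edgeR 4.0.16 in R 4.3.3 (filterByExpr, TMM factors, quasi-likelihood F test, Benjamini-Hochberg adjustment over all genes tested, threshold 0.05): comparisons within a time used a fit of that time's 4 groups (12558, 12647 and 12826 genes), and comparisons between times used 1 fit of all 12 groups (13252 genes). All 37 measured members passed the filter in each of these fits. Standard errors are the absolute log2 change divided by the square root of F, and log2 CPM used a prior count of 2. Totals of 802478 to 5596318 counts per library set the precision, and intervals cover counting error and the spread between mice of these samples.

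The members and lists were chosen with earlier results of these data known. Of the comparisons 22 were planned and 10 added later (times split by genotype, 9 months against 1 day, and differences between changes). Named members are Foxj1, the most abundant of each role, up to 4 per comparison and direction with the smallest adjusted p, or the 2 with the smallest p where none passed; further ones were named after their values were seen. Alternatives were DESeq2 size factors and its Wald test (1.42.0), no filter on low counts, other sets of samples in the fit, each library left out, and, chosen after seeing the data, the 6 libraries that stand apart left out. The procedure was tested on simulated data. Replicate numbers follow accession order and pair no samples, and replicates of a group differed by more than sampling noise.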

Additional observations from a re-analysis of the deposited data

Results flagged for a closer look

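In 15 of 108 checks (9 quantities in 12 groups) 1 mouse stood far from the others of its group; chance alone gives about 5% of such checks. 8 of the 15 came from libraries that stand apart as a whole. Knockout silica 3 months replicate 3 was low in Hydin (33.4 CPM, others 75.7 to 96.3), Tppp3 (97.2 CPM, others 219 to 242), Sec14l3 (747 CPM, others 1362 to 1530) and the members' mean log2 CPM (3.94, others 4.72 to 4.99). Knockout silica 1 day replicate 3 was low in Tppp3 (111 CPM, others 185 to 218). Sec14l3 was high in knockout air 1 day replicate 3 (1953 CPM, others 1487 to 1639), and low in wildtype air 9 months replicate 5 (1439 CPM, others 1751 to 1863) and in knockout air 9 months replicate 4 (1168 CPM, others 1745 to 1921).

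The other 7 involved 1 or 2 genes of a mouse. Dnah5 was low in knockout air 1 day replicate 5 (67.3 CPM, others 90.5 to 103). Dnah6 was low in knockout air 3 months replicate 2 (90 CPM, others 108 to 116) and high in knockout air 9 months replicate 3 (260 CPM, others 164 to 199). Wildtype silica 9 months replicate 1 was high in Hydin (128 CPM, others 95.6 to 104) and Ak7 (38.1 CPM, others 31.9 to 33.4). Ccdc39 was low in wildtype air 1 day replicate 1 (18.1 CPM, others 22.4 to 24.4), and Ak7 was high in wildtype air 1 day replicate 5 (27.7 CPM, others 20.9 to 23.1).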

How the results depend on the processing

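Among the members with the smallest p in each comparison, none changed the sign of its log2 change. Some medians of the members near 0 did change sign, among them silica in knockout mice at 3 months and genotype in air at 9 months, as given above. The rise from 3 to 9 months was called in 34 or 35 members in air and 23 to 30 after silica under every alternative run, and 0 members were called for genotype or its interaction with silica under every one. The next counts are without the 6 libraries that stand apart, an alternative chosen after seeing the data, with the share of all genes in brackets. At 1 day silica called 1 member in wildtype (4.48% of genes), 1 in knockout (1.83%) and 1 over both genotypes (5.13%). At 3 months it called 2 in knockout (3.72%) and 2 over both (7.81%), and at 9 months 2 over both (3.87%). The change from 1 day to 3 months called 3 in air (0.535%) and 20 after silica (4.91%). Wildtype silica from 3 to 9 months called 5 (5.45%). DESeq2's Wald test called 1 for silica over both genotypes at 1 day (5.01% of genes) and 1 from 1 day to 3 months in air (0.196%). Fitting the compared groups alone called 8 in that last comparison (0.781% of genes) and 3 in wildtype silica from 3 to 9 months (4.73%). For Foxj1, 2 members and 0 secretory markers correlated in air libraries alone, and 11 and 0 without the 6 libraries.

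With each library left out in turn, counts ran from 0 to 1 for silica in knockout mice and over both genotypes at 1 day (1 without knockout silica replicate 3, and over both also without replicate 2 or 6), and from 0 to 2 for silica in knockout mice and over both at 3 months (2 without knockout silica replicate 3). They ran from 0 to 1 for air from 1 day to 3 months (1 without wildtype air 1 day replicate 3 or knockout air 1 day replicate 4), from 10 to 19 for silica over the same months, from 10 to 32 for wildtype air from 3 to 9 months, where Foxj1 was lost in some of these fits, from 0 to 1 for wildtype silica (1 without 3 months replicate 3), and from 0 to 2 for the difference between silica and air changes. The causes were not tested. No paired analysis was possible because the labels give no replicate numbers that pair mice. Members of low count, such as Tmem212 and Cfap126, limit what can be seen at this depth.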

Other observations

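At 1 day after exposure, where no member passed, 2 genes of the further cilia lists did pass for silica against air over both genotypes. The lists hold 40, 14, 20, 26 and 8 genes tested in the fit of all times. Of all genes 4.59% passed in this comparison, a share that the 2 genes of the lists did not exceed. Plk4, the kinase that starts centriole duplication and is also active in dividing cells, was higher after silica by 0.86 log2 (adjusted p = 0.000524, edgeR). Ccdc65, of the nexin link, was higher by 0.64 log2 (adjusted p = 0.0301, edgeR). At 3 and 9 months no gene of those lists passed in that comparison, where 7.95% and 0.242% of all genes did.

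Sec14l3 was compared, after its values were seen, with 3 club cell genes and 6 members over the 70 mice, with group means removed and p adjusted over the 9 pairs. It correlated with Cyp2f2 (r = 0.77, rho = 0.64, permutation p = 1e-05 and 2e-05, adjusted p = 9e-05 for both; 1e-05 is the smallest p the permutations can give), Scgb3a2 (r = 0.68, rho = 0.47, permutation p = 5e-05 and 1e-04, adjusted p = 0.000225 for both) and Scgb1a1 (r = 0.63, rho = 0.50, permutation p = 0.00172 and 7e-05, adjusted p = 0.00516 and 0.00021). With Foxj1 it did not (r = 0.17, rho = 0.11, permutation p = 0.276 and 0.429, adjusted p = 0.276 and 0.429). With the axoneme genes Dnah5, Dnah6, Dnah9, Hydin and Tppp3, r ran from 0.49 to 0.52 and rho from 0.27 to 0.50, with adjusted permutation p between 0.016 and 0.0358 by r for all 5 and at or under 0.00777 by rho for all but Tppp3 (0.0516). Dnah5 had the highest rho of these (0.50, adjusted p = 9e-05), level with that of Scgb1a1. Among the members left out of the 9 pairs, r with Sec14l3 ran from -0.03 for Tekt1 to 0.59 for Cdhr3 and 0.60 for Dnah11, without a test. The 2 highest of these lay above the r of the 5 axoneme genes and close to that of Scgb1a1. Without the 2 mice farthest from the Sec14l3 median, r was 0.58 with Cyp2f2, 0.44 with Scgb3a2, 0.43 with Scgb1a1 and -0.03 with Foxj1, and with the 5 axoneme genes it ran from 0.16 to 0.30. Without the 6 libraries that stand apart, r was 0.60 with Cyp2f2, 0.46 with Scgb1a1, 0.44 with Scgb3a2 and 0.16 with Foxj1, and it was 0.56 with Dnah5, 0.46 with Hydin, 0.43 with Dnah9, 0.39 with Dnah6 and 0.21 with Tppp3. Whether these correlations differ from each other was not tested.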
